A study of Homo sapiens with 12 samples.

Results

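The 7 genes described here encode members of the RAS-RAF-MEK-ERK cascade, and they were taken from the deposited Huh7 table by gene symbol, with no threshold on a measured value. They are NRAS and HRAS of the RAS tier, ARAF and BRAF of the RAF tier, MAP2K1 and MAP2K2 of the MEK tier (the kinases MEK1 and MEK2), and MAPK3 of the ERK tier (the kinase ERK1). All 7 were found among the 60666 listed genes, and the other paralogs of these tiers are not reported here. Messenger RNA came from Huh7, a long-established line of human hepatocellular carcinoma cells. The 3 control libraries carried the study's control sequence, and the 3 shFAM111B libraries carried a lentiviral short hairpin RNA against FAM111B for stable knockdown. The labels give no drug for either group, and both were grown in the same high-glucose medium. The question put to these genes is whether their transcript levels differed between control and FAM111B knockdown cells. Infected cells were kept under puromycin selection, and the Hep3B libraries of the same study are not analysed here.

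RAS proteins are small GTPases at the inner face of the plasma membrane. They are switched on by exchange factors downstream of receptor tyrosine kinases, and when loaded with GTP they recruit RAF kinases. RAF phosphorylates MEK, and MEK phosphorylates ERK, which acts on targets in the cytoplasm and nucleus. In liver cells the cascade relays growth factor signals, and several kinase inhibitors used in liver cancer act on this pathway or above it. Activity runs through phosphorylation and GTP loading, which RNA sequencing does not measure.

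HRAS and NRAS encode proteins of 189 residues each, of which 161 (85.2%) were identical in an alignment of their translated coding sequences. At 94 of the identical residues the codon differed, and among these the last base of the codon was G or C in 82 codons of HRAS and in 20 of NRAS. For MAP2K2 (400 residues) and MAP2K1 (393 residues), 321 of 392 aligned residues (81.9%) were identical. The stretch below opens their longest run of identical residues, which spans 63 codons. It covers codons 98 to 127 of MAP2K2 and codons 94 to 123 of MAP2K1 in the longest complete coding sequences of GENCODE v29 (GRCh38), on the coding strand, and shows how reads of the MEK paralogs can be told apart although the protein is the same. Capitals mark the 15 bases that differ. The last base of a codon accounts for 14 of them. Over all 15, MAP2K2 has G or C at 13 positions and MAP2K1 at 4.
MAP2K2: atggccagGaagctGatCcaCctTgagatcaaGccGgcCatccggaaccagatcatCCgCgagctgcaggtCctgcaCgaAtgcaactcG
MAP2K1: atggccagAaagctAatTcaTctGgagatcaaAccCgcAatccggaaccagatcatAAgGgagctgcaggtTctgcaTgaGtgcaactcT
In their longest complete coding sequences, which may not be the main forms, ARAF (609 residues) and BRAF (807 residues) are less alike. Of 598 aligned residues, 377 (63.0%) were identical. Annotated pseudogenes of the members reached at most 0.23 TPM in a library, and only MAP2K1P1 was above 0.

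Values are TPM, a relative abundance corrected for gene length, with the same nominal total in every library. This unit holds no sequencing depth, which is therefore unknown, and counting error could not be computed. FAM111B, the targeted gene, had 7.84, 8.29 and 7.99 TPM in the controls and 0.96, 1.13 and 0.84 TPM in the shFAM111B libraries (log2 fold change -2.20, standard error 0.113, limma adjusted p = 6.09e-06). All 9 hepatocyte and hepatoma markers listed had at least 1 TPM in every library, and their sum was 27330 to 27900 TPM in controls and 40690 to 45670 TPM in shFAM111B libraries. AFP had the highest value among these 9, 25038.14 TPM, a large part of such a sum. Of 8 markers of blood, endothelial and fibroblast cells, 2 had at least 1 TPM in every library, none was at 0 in all 6, and their sum was 18.1 to 22.0 TPM against 25.7 to 27.26 TPM. CD68 had the highest value among these, 23.37 TPM, and the part of such differences in the results below was not tested. Short non-coding RNA stood apart in shFAM111B replicates 1 and 2, with 51314 and 73772 TPM against 8685 in replicate 3 and 8684 to 11884 in controls, so member values are also given for replicate 3 on its own. Mitochondrially encoded RNA moved with the group in all 6 libraries, replicate 3 included, with 189116 to 194351 TPM in controls and 69675 to 74465 TPM in shFAM111B libraries. With mitochondrial and short non-coding genes taken out and the TPM rescaled, the log2 fold changes were -1.88 for NRAS, 1.34 for HRAS, -0.44 for ARAF, -0.94 for BRAF, -1.04 for MAP2K1, 0.82 for MAP2K2 and -0.45 for MAPK3. The labels do not say that replicates came from separate cultures, so p-values measure the spread between these libraries, which may be technical.

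Knockdown libraries differed from controls in every member. The RAS and MEK paralogs went in opposite directions, with HRAS and MAP2K2 higher and NRAS and MAP2K1 lower. Both RAF paralogs were lower, BRAF more than ARAF, although BRAF turned to higher once a trend with transcript length and expression was removed (log2 fold change 0.25, limma adjusted p = 0.0421). ARAF and MAPK3 were slightly lower on the TPM scale but lay beside the median of all genes, and their direction depended on the scaling of the libraries. Testing required a level of 1 TPM or more in 3 or more of the 6 libraries, which held for all 7 members and for 14394 genes in all. At an adjusted p under 0.05 (limma-trend on log2(TPM + 1), Benjamini-Hochberg over all tested genes), 2 members were higher and 5 lower, against 21.1% of all tested genes higher and 50.9% lower. At a fold of at least 2 with P under 0.05, HRAS was higher and NRAS lower, against 6.82% and 23.7% of all tested genes. The groups did not overlap in any of the 7 members, as in 75.2% of all tested genes. The median log2 fold change of the members was -0.32, beside -0.36 over all tested genes, and 4 lay above the median gene and 3 below it.

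**Figure D1:**
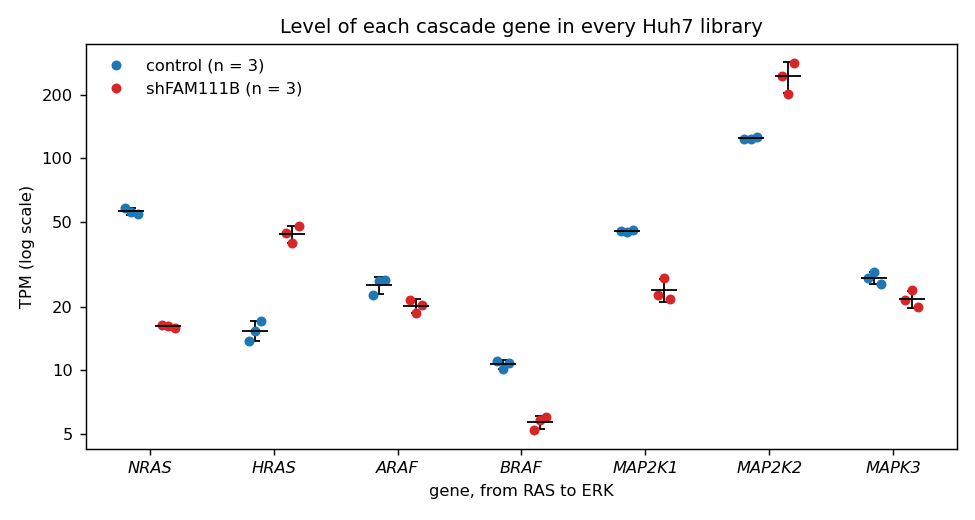
TPM (vertical axis, log scale) of the 7 cascade genes in each of the 6 Huh7 libraries, with control libraries in blue, shFAM111B libraries in red, and bars for the mean and SD of 3 libraries. No gene has overlapping groups. HRAS moved from 15.39 to 43.98 TPM and NRAS from 56.25 to 16.14 TPM, so these genes trade places in the TPM as deposited.

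NRAS (ENSG00000213281, chromosome 1 from 114704469 to 114716894, minus strand, GRCh38) encodes a RAS GTPase named for its discovery in neuroblastoma. Control replicates 1 to 3 had 58.47, 55.65 and 54.62 TPM of NRAS, and shFAM111B replicates 1 to 3 had 16.37, 16.18 and 15.86 TPM. Every knockdown library was thus far below every control, with little spread within either group. The mean went from 56.25 ± 1.99 TPM (SD, n = 3) in controls to 16.14 ± 0.258 TPM (SD, n = 3), and the log2 fold change was -1.74 (standard error 0.0568, 95% confidence interval -1.87 to -1.60, limma adjusted p = 2.46e-06). Among the tested genes this fold change was at percentile 5.65, the lowest of the 7 members.

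HRAS (ENSG00000174775, chromosome 11 from 532242 to 537287, minus strand) encodes the RAS GTPase first known from a Harvey sarcoma virus. Its control libraries had 13.76, 15.34 and 17.07 TPM, and its shFAM111B libraries 44.29, 39.74 and 47.92 TPM. The lowest knockdown library was well above the highest control. The mean rose from 15.39 ± 1.66 TPM (SD, n = 3) in controls to 43.98 ± 4.10 TPM (SD, n = 3), and the log2 fold change was 1.46 (standard error 0.102, 95% confidence interval 1.22 to 1.70, limma adjusted p = 1.89e-05). This was the highest of the members, at percentile 97.0 of the tested genes.

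The ratio of HRAS to NRAS within a library does not depend on a scaling factor applied to the whole library. It was 0.235, 0.276 and 0.313 in controls and 2.71, 2.46 and 3.02 in shFAM111B libraries, so NRAS was the more abundant of the pair in every control and HRAS in every knockdown library. On the log2 scale the ratio differed by 3.32 (standard error 0.146), which is 9.97-fold. On the log2(TPM + 1) scale the difference was 2.24 after removal of a trend with transcript length and mean expression. It was 1.66 with GC content removed as well. The trend was fitted to fold changes and taken from the knockdown libraries only. These values therefore cannot tell which gene of the pair was the more abundant in a group, and the reversed order is given for the TPM as deposited. HRAS made up 21.5 ± 2.38% (SD, n = 3) of the sum of both in controls and 73.1 ± 2.03% (SD, n = 3) in shFAM111B libraries. The sum itself went from 71.64 ± 0.622 TPM (SD, n = 3) in controls to 60.12 ± 3.96 TPM (SD, n = 3), without overlap.

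In the RAF tier, ARAF (ENSG00000078061, chromosome X from 47561100 to 47571920, plus strand) encodes the RAF kinase with the weakest activity toward MEK. It had 22.68, 26.52 and 26.57 TPM in controls and 21.57, 18.56 and 20.44 TPM in shFAM111B libraries. The highest knockdown library lay only 1.11 TPM below the lowest control. The mean went from 25.26 ± 2.23 TPM (SD, n = 3) in controls to 20.19 ± 1.52 TPM (SD, n = 3), and the log2 fold change was -0.31 (standard error 0.0914, 95% confidence interval -0.53 to -0.09, limma adjusted p = 0.0187). This lay 0.05 above the median gene, at percentile 52.2. The log2 fold change turned to 0.13 under median-of-ratios scaling, where it did not pass, and the adjusted p rose above the threshold when control replicate 2 (0.0658), control replicate 3 (0.0623) or shFAM111B replicate 2 (0.0547) was left out.

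BRAF (ENSG00000157764, chromosome 7 from 140719327 to 140924928, minus strand) encodes the RAF kinase with the highest basal activity. Controls had 11.12, 10.1 and 10.83 TPM, and shFAM111B libraries had 5.21, 5.81 and 6.01 TPM, the lowest levels among the members. The groups were well apart. The mean went from 10.68 ± 0.526 TPM (SD, n = 3) in controls to 5.68 ± 0.416 TPM (SD, n = 3), and the log2 fold change was -0.81 (standard error 0.0936, 95% confidence interval -1.03 to -0.59, limma adjusted p = 0.0002). An exon of BRAF overlaps an exon of NDUFB2 on the opposite strand, and NDUFB2, a subunit of respiratory complex I, averaged 322.21 TPM in controls and 631.91 TPM in shFAM111B libraries. Whether the authors' counting used the strand is not given in the sources used here, so the split of reads between these genes is uncertain.

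ARAF over BRAF was 2.04, 2.63 and 2.45 in controls and 4.14, 3.19 and 3.40 in shFAM111B libraries. ARAF was thus the more abundant of the pair in all 6 libraries, and more so after knockdown. The log2 ratio differed by 0.59 (standard error 0.157), which is 1.51-fold, the smallest difference of the 3 pairs, and it reversed to -0.18 after removal of a trend with transcript length and mean expression and to -0.36 with GC content removed as well. The share of ARAF was 70.2 ± 2.76% (SD, n = 3) in controls and 78.0 ± 2.28% (SD, n = 3) in shFAM111B libraries, and the sum of the pair went from 35.94 ± 1.89 TPM (SD, n = 3) in controls to 25.87 ± 1.31 TPM (SD, n = 3).

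In the MEK tier, MAP2K1 (ENSG00000169032, chromosome 15 from 66386817 to 66492312, plus strand) encodes MEK1, a kinase that phosphorylates ERK on a threonine and a tyrosine. It had 45.69, 45.01 and 45.74 TPM in controls and 22.68, 27.35 and 21.75 TPM in shFAM111B libraries. The controls were nearly equal, and all knockdown libraries were below them. The mean went from 45.48 ± 0.408 TPM (SD, n = 3) in controls to 23.93 ± 3.001 TPM (SD, n = 3), and the log2 fold change was -0.91 (standard error 0.0901, 95% confidence interval -1.12 to -0.69, limma adjusted p = 9.33e-05). Exons of MAP2K1 overlap SNAPC5 (29.553 TPM in controls and 40.893 TPM in shFAM111B libraries) and AC116913.1 (2.34 and 3.143 TPM) on the opposite strand.

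MAP2K2 (ENSG00000126934, chromosome 19 from 4090321 to 4124129, minus strand) encodes MEK2, which acts on the same substrates as MEK1. Controls had 123.9, 123.12 and 126.32 TPM and shFAM111B libraries 246.25, 202.24 and 282.76 TPM. All knockdown libraries were above the controls, but they differed more among themselves than in any other member. The mean rose from 124.4 ± 1.67 TPM (SD, n = 3) in controls to 243.8 ± 40.3 TPM (SD, n = 3), and the log2 fold change was 0.95 (standard error 0.113, 95% confidence interval 0.68 to 1.22, limma adjusted p = 0.00023), at percentile 92.1 of the tested genes.

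MAP2K2 over MAP2K1 was 2.71, 2.74 and 2.76 in controls and 10.9, 7.39 and 13.0 in shFAM111B libraries. MAP2K2 was the more abundant of the pair throughout. The log2 ratio differed by 1.89 (standard error 0.240), which is 3.71-fold. The share of MAP2K2 was 73.2 ± 0.179% (SD, n = 3) in controls and 90.8 ± 2.47% (SD, n = 3) in shFAM111B libraries. Unlike those of the RAS and RAF pairs, the sum of the MEK pair was higher after knockdown, from 169.9 ± 1.99 TPM (SD, n = 3) in controls to 267.7 ± 37.5 TPM (SD, n = 3). The sums depend on the scaling, whereas the ratios stay the same when a whole library is multiplied by a single factor. Under median-of-ratios scaling that of the RAS pair was higher after knockdown, 61.18 ± 0.394 (SD, n = 3) in controls and 70.37 ± 4.16 (SD, n = 3) in shFAM111B libraries, that of the RAF pair overlapped (30.69 ± 1.61 and 30.29 ± 1.53, SD, n = 3), and that of the MEK pair stayed higher (145.1 ± 1.06 and 313.2 ± 41.3, SD, n = 3). For each of the 3 ratios a two-sided exact permutation test of 3 libraries against 3 gave p = 0.1 (adjusted over the 3 ratios 0.1), which is the smallest p this design allows.

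MAPK3 (ENSG00000102882, chromosome 16 from 30114105 to 30123506, minus strand) encodes ERK1, the last kinase of the cascade. It had 27.37, 29.24 and 25.67 TPM in controls and 21.54, 23.92 and 19.84 TPM in shFAM111B libraries. The groups did not overlap, but they were close. The mean went from 27.43 ± 1.79 TPM (SD, n = 3) in controls to 21.77 ± 2.05 TPM (SD, n = 3), and the log2 fold change was -0.32 (standard error 0.0885, 95% confidence interval -0.53 to -0.11, limma adjusted p = 0.0136). This lay 0.04 above the median gene, at percentile 51.6, and the log2 fold change became 0.11 under median-of-ratios scaling, where it did not pass. Without control replicate 2 the adjusted p was 0.0514.

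Levels in TPM can be set side by side between genes because they are per length. In controls the order from the highest mean was MAP2K2, NRAS, MAP2K1, MAPK3, ARAF, HRAS and BRAF, and only MAPK3 and ARAF had overlapping ranges among neighbours. In shFAM111B libraries it was MAP2K2, HRAS, MAP2K1, MAPK3, ARAF, NRAS and BRAF. There MAP2K1 overlapped MAPK3 and MAPK3 overlapped ARAF, and the other neighbours did not overlap. MAP2K2 was the most and BRAF the least abundant member in both groups, while HRAS and NRAS exchanged the second and the sixth place. Among all tested genes, the mean level of HRAS moved from percentile 55.5 to 82.6 and that of NRAS from 83.5 to 65.2.

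The scaling of the libraries bears on direction, because the median tested gene was at a log2 fold change of -0.36 with the TPM as deposited. Median-of-ratios scaling, upper-quartile scaling, quantile normalization and subtraction of the median of each library moved that median to between -0.03 and 0.17. HRAS was higher by 1.85 to 1.99 on the log2 scale under these and MAP2K2 by 0.84 to 1.48, while NRAS ran from -1.37 to -1.21, MAP2K1 from -0.53 to -0.37 and BRAF from -0.44 to -0.28. ARAF ran from 0.09 to 0.22 and MAPK3 from 0.08 to 0.21. The split over all tested genes moved from 21.1% higher and 50.9% lower to between 32.5% and 41.6% higher and between 29.4% and 36.8% lower. With shFAM111B replicate 3 as the only knockdown library, the log2 fold changes were -1.76 for NRAS, 1.58 for HRAS, 1.18 for MAP2K2, -1.03 for MAP2K1, -0.74 for BRAF, -0.45 for MAPK3 and -0.29 for ARAF, all in the direction found with 3.

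The members also differ in the make-up of their transcripts, which the choice of genes did not use. The longest annotated coding transcript of HRAS has 1233 nt with a GC content of 65.8%, and that of MAP2K2 has 1734 nt with 65.5%. Those of NRAS have 4449 nt and 38.4%, and those of BRAF 9578 nt and 40.0%. MAP2K1 (3410 nt, 50.4%), ARAF (2504 nt, 58.9%) and MAPK3 (2567 nt, 61.4%) lie between, and the medians over 11843 tested protein-coding genes are 3320 nt and 48.4%. The members that rose are therefore the shortest, and NRAS and BRAF are the longest and the poorest in GC. Across all these genes the log2 fold change had a Spearman correlation of -0.49 with transcript length and of 0.39 with GC content, a description across genes that share the same 6 libraries.

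Genes were set in classes of length and GC to place the members. HRAS and MAP2K2 belong to the 1218 genes of up to 2000 nt with a GC content over 55%, whose median log2 fold change was 0.41, with 57.8% higher and 13.0% lower at an adjusted p under 0.05. Within that class HRAS was at percentile 94.0 and MAP2K2 at 80.9. NRAS and BRAF belong to the 2397 genes over 4000 nt with at most 45% GC, whose median was -1.02, with 5.05% higher and 81.7% lower. NRAS was at percentile 13.7 there, and BRAF at 62.7, so BRAF lay above the median of its class by 0.21. The class of BRAF rests on its longest coding transcript, which is not the transcript that gave its 807 residues. MAP2K1 was at percentile 23.7 of its class of over 2000 to 4000 nt with a GC content over 45 to 55% (median -0.40). ARAF and MAPK3 were at percentiles 40.3 and 39.5 of the class of that length with over 55% GC (median -0.15).

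Removing a fitted trend with transcript length and mean expression left log2 fold changes of 1.23 for HRAS, 0.88 for MAP2K2, -1.01 for NRAS and -0.34 for MAP2K1, and removing GC content as well left 0.87, 0.52, -0.79 and -0.31. BRAF turned to 0.25 (limma adjusted p = 0.0421) and, with GC content, to 0.26 (limma adjusted p = 0.0361). The difference between HRAS and NRAS was then 2.24 and 1.66, and that between MAP2K2 and MAP2K1 1.22 and 0.83, whereas the difference between ARAF and BRAF changed sign, as given above. These values are on the log2(TPM + 1) scale, and the part of transcript length and GC content in the results was not tested further.

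Genes that act around the members were put in 8 lists by role, 81 genes in all, of which 69 were tested. Of these, 4 were higher and 49 lower at an adjusted p under 0.05 and 16 did not pass, with a median log2 fold change of -0.78 beside -0.36 for all tested genes and 50.9% lower. At 2-fold with P under 0.05, 0 were higher and 22 lower, against 6.82% and 23.7% of all tested genes. The split depended on the scaling, and after subtraction of the median of each library it was 20 higher and 33 lower. Many of these genes have long transcripts, 30 of the 69 over 4000 nt and 12 up to 2000 nt. The classes of length and GC to which they belong had a median log2 fold change of -0.73 over the 69 genes, and the median difference of a gene from its own class was -0.21.

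Of the 9 tested activators and adaptors that load RAS with GTP or recruit those that do, all 9 were lower, with a list median of -1.40. Transcripts of 7 of the 9 exceed 4000 nt, a length at which 75.3% of tested protein-coding genes were lower, and the median difference of these activators from their classes of length and GC was -0.46. PTPN11, the phosphatase SHP2 that links receptors to RAS, fell from 66.22 ± 3.07 TPM (SD, n = 3) in controls to 11.74 ± 0.286 TPM (SD, n = 3), and the log2 fold change was -2.40 (limma adjusted p = 1.58e-06). SOS1, the exchange factor that loads RAS with GTP, had 10.74, 10.7 and 9.35 TPM in controls and 1.53, 1.65 and 1.18 TPM in shFAM111B libraries (log2 fold change -2.20). FRS2, the adaptor of FGF receptors, had a log2 fold change of -1.62. Of the 7 tested GTPase-activating proteins, which switch RAS off, 6 were lower and 1 did not pass (median -1.01), with RASA1 at -1.40 and NF1, the gene of neurofibromin, at -1.01. Transcripts of 6 of these 7 also exceed 4000 nt, and their median difference from their classes of length and GC was -0.11. Genes that switch RAS on and genes that switch it off were therefore both lower, as were most genes of that length.

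Among 5 RAS-related GTPases, 4 were lower and 1 did not pass (median -0.78), against 50.9% lower over all tested genes. Their median difference from their classes of length and GC was -0.64. RAP1B, which shares effector sequences with RAS, went from 224.2 ± 14.7 TPM (SD, n = 3) in controls to 50.53 ± 5.35 TPM (SD, n = 3), and the log2 fold change was -2.13 (limma adjusted p = 3.23e-06), while RRAS2 and RAP1A were at -0.78 and -0.77. Of 9 genes for lipid processing of RAS, 5 were lower and 4 did not pass (median -0.94), a share lower that is near that of all tested genes. The median difference of these 9 genes from their classes was -0.46. FNTA, the shared alpha subunit of farnesyltransferase, which attaches the lipid that HRAS and NRAS need at the membrane, was at -1.12. ICMT, the methyltransferase of the last step of that processing, was at -0.98, and LYPLA1, a depalmitoylating enzyme, at -1.68.

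Of 17 tested regulators of RAF, 12 were lower, 1 was higher and 4 did not pass (median -0.78). Over all tested genes 50.9% were lower and 21.1% higher. The median difference of these regulators from their classes of length and GC was -0.225. The leading genes were 14-3-3 proteins, which bind RAF, with YWHAG at -1.49, YWHAZ at -1.18 and YWHAH at -0.86. YWHAZ fell from 321.7 ± 19.8 TPM (SD, n = 3) in controls to 141.1 ± 8.39 TPM (SD, n = 3). Not all 14-3-3 genes moved alike, since YWHAE, the most abundant of those listed (mean 415.4 TPM over the 6 libraries), was at -0.08 and did not pass (limma adjusted p = 0.145), and YWHAB was at -0.29. YWHAE and YWHAB were named after their values were seen. The 7 scaffolds of MEK and ERK were divided, with 2 higher, 4 lower and 1 that did not pass (median -0.19). IQGAP1, a large scaffold that binds MEK and ERK, was at -1.20 and PEA15, which keeps ERK in the cytoplasm, at -0.50, whereas LAMTOR2, part of the late endosomal anchor of MEK1, rose from 116.4 ± 4.09 TPM (SD, n = 3) in controls to 191.2 ± 19.5 TPM (SD, n = 3), and the log2 fold change was 0.71 (limma adjusted p = 0.000149).

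Downstream, 5 kinases activated by ERK were tested, of which 1 was higher, 2 were lower and 2 did not pass (median -0.18). RPS6KA3, the kinase RSK2, had 114.18, 105.13 and 95.9 TPM in controls and 22.32, 25.35 and 19.23 TPM in shFAM111B libraries, a log2 fold change of -2.19 (limma adjusted p = 5.6e-06). Its paralog RPS6KA1 (RSK1) went the other way, with a log2 fold change of 0.36 (limma adjusted p = 0.0318), and MKNK1 was at -0.55. Of 10 tested ERK phosphatases and Sprouty or Spred inhibitors, which restrain the cascade, 7 were lower, 0 were higher and 3 did not pass (median -0.63). Over all tested genes 50.9% were lower. Transcripts of 5 of the 10 exceed 4000 nt, and the classes of length and GC of these genes had a median of -0.77. The median difference from the classes was -0.09, so the list lay close to genes of like length and GC. SPRED2, an inhibitor that recruits neurofibromin, was at -1.95, DUSP6, a cytoplasmic ERK phosphatase, at -1.31 and DUSP9, another ERK phosphatase, at -0.33. Among the genes named by smallest p in each list, the direction of DUSP9 and of PEA15 depended on the scaling. Their ranges were -0.46 to 0.20 and -0.63 to 0.03, and the other genes so named kept their direction. YWHAE and YWHAB, which were named otherwise, were not followed across the scalings. Relative to the median gene, the medians of the scaffolds and of the kinases activated by ERK were above 0 and those of the other 6 lists below 0 under the deposited scaling and the other 5, although the absolute medians of the scaffolds and of the kinases activated by ERK changed sign between scalings.

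The genes most like HRAS and NRAS across the 6 libraries were sought among 7044 protein-coding genes that averaged 10 TPM or more, by the Pearson correlation of log2(TPM + 1). For HRAS they were TMEM101 (r = 0.9997), CLTA (r = 0.9997) and NIT2 (r = 0.9996), with log2 fold changes of 1.11, 0.48 and 0.61. For NRAS they were SMC5 (r = 0.9999), ERBIN (r = 0.9999) and NCOA4 (r = 0.9998), at -2.31, -2.62 and -2.47. The 6 points of each correlation fall in 2 groups of 3 libraries, and 1163 genes had r over 0.95 with HRAS and 3041 with NRAS.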

How the data were processed

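RNA sequencing libraries of Huh7 cells were compared, 3 controls against 3 shFAM111B. The authors deposited TPM per library, with group means, and their own comparison (fold change, its log2, p-value and adjusted p-value), which was not used. The labels list RSEM, DESeq2 and hg38 without roles. Aligner, annotation and strand setting are not given in the sources used here. The paper names a TruSeq kit and the labels a stranded poly(A) kit. TPM keep no depth, so no count test was run.

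Genes that reached 1 TPM in 3 or more libraries were compared on log2(TPM + 1) with limma 3.58.1 (lmFit and eBayes with a trend, R 4.3.3), without covariates, with Benjamini-Hochberg adjustment over 14394 genes. The calls at 2-fold used P under 0.05. A pseudocount understates the change of low genes. Ratios of paralogs were taken within a library without a pseudocount. Positions, transcripts and coding sequences came from GENCODE v29 (GRCh38), with Biopython 1.88 for alignment, and 96.3% of the listed genes matched by identifier. The transcript expressed may not be the longest. Trends were fitted by loess (span 0.75). The scripts were tested on simulated data.

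Members and role lists were chosen with earlier results of these data known. Named genes were the members, FAM111B, up to 3 genes with the smallest p of each role list among those averaging 5 TPM or more, and the 3 genes most correlated with the member of the highest and of the lowest fold change. Alternatives were filters, a pseudocount of 0.1, a replicate block, scalings, trend removal and leaving out libraries. Some sequences are not reported here.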

Additional observations from a re-analysis of the deposited data

How the results depend on the processing

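Removal of the trend with GC content, shFAM111B replicate 3 as the lone knockdown library (assumed to vary like the controls) and the trend-corrected ratios were chosen after seeing the data. NRAS, HRAS, MAP2K1 and MAP2K2 kept their direction in every alternative. ARAF and MAPK3 reversed, without passing, under median-of-ratios scaling (0.13 and 0.11), upper-quartile scaling (0.0888 and 0.0760), quantile normalization (0.15 and 0.13), median subtraction (0.22 and 0.21) and removal of the length and expression trend (0.0654 and 0.0697). BRAF reversed with that trend removed (0.25) and with GC content too (0.26). The difference of ARAF and BRAF reversed to -0.18 and -0.36, that of HRAS and NRAS moved to 2.24 and 1.66 and that of MAP2K2 and MAP2K1 to 1.22 and 0.83.

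Members lower at an adjusted p under 0.05 numbered 3 under the 4 scalings and 2 with either trend removed, against 5, and 3 to 5 with each library left out. At 2-fold, 2 members were higher under median-of-ratios, upper-quartile and median scaling, and 2 were lower without mitochondrial and short non-coding genes, while with GC content removed it was 0 and 0. With replicate 3 as the lone knockdown library 2 were higher and 2 lower, and leaving out each library gave 1 to 2 higher and 1 to 2 lower. In each case the added genes were MAP2K2 or MAP2K1. Higher genes of the role lists numbered 16, 15, 10 and 20 under median-of-ratios, upper-quartile, quantile and median scaling, and 8 and 7 with the trends removed, against 4. The cause was not tested.

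Same-numbered libraries had correlations of 0.054, 0.0349 and 0.0908 between their deviations from the group means, so the numbers were not taken as pairs. With a replicate block 996 genes were higher and 3410 lower at 2-fold, against 981 and 3409, and 2 members were higher and 5 lower, as without it. Each control correlated best with the shFAM111B library of its own number, but shFAM111B replicate 2 correlated slightly more with control replicate 1 (0.0442). Depth is unknown, so limits by counting could not be set.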
